A study of Mus musculus with 6 samples.

Results

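The genes described here are 44 enzymes, carriers and regulators of glycolysis, the pentose phosphate pathway and the citrate cycle, picked by gene symbol from a table of 53465 genes. They comprise 22 genes of glycolysis with its glucose and lactate carriers, 7 of the pentose phosphate pathway and 15 of the citrate cycle. Aldoa is listed under 2 identifiers, so the set covers 45 rows. The RNA came from cultured mouse Nras(G12D)/MLL-AF9 cells, a leukaemia model that carries an activated Nras together with the MLL-AF9 fusion, with blood as the tissue label. The cells grew in RPMI with 10% serum and the cytokines SCF, IL-3 and IL-6, and both groups shared this genotype and medium. The OMP group (3 libraries) received 4'-O-methylpyridoxine, an analogue of the vitamin B6 form pyridoxine, at 100 µM for 6 days, and the Vehicle group (3 libraries) received an equal volume of PBS. The labels do not say whether the cells are a clone or whether replicates came from separate cultures, so a p-value here refers to the spread among the 6 libraries, and that spread may be technical. The comparison asks which transcripts of central carbon metabolism differed between OMP-treated and Vehicle cells.

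Glycolysis splits glucose into pyruvate in the cytosol, and lactate dehydrogenase turns pyruvate into lactate while it renews the NAD that the pathway needs. The pentose phosphate pathway branches off at glucose phosphate. Its oxidative arm reduces NADP to NADPH, which serves biosynthesis and the defence against oxidants, and its non-oxidative arm makes ribose phosphate for nucleotides. The citrate cycle oxidises acetyl groups in mitochondria, passes electrons to the respiratory chain and supplies building blocks for lipids and amino acids. Dividing blood cells and leukaemic cells are known for high glycolysis with lactate release.

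Among these genes, the glucose carrier Slc2a3 rose 4.35-fold with OMP, the isocitrate dehydrogenases Idh2 and Idh1 and the phosphofructokinase Pfkm fell, and most other members moved little. Values are RPKM, that is reads scaled to gene length and library total. A gene counts as changed where the limma adjusted p, on log2(RPKM + 0.5), is under 0.05. A log2 fold change is OMP minus Vehicle on that scale, and it understates the change of low genes. Of the 44 genes, 42 passed the filter of 1 RPKM in at least 3 libraries and were tested. The second Aldoa row held 1 read in all, Aldoc held 35 reads summed over Vehicle and 16 over OMP, and Eno2 held 1 and 1, so these were not tested.

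Of the 42 tested genes, 16 (38.1%) passed the threshold, against 43% of all 11020 genes tested. Higher with OMP were 4, against 15.4% of all genes, and lower were 12, against 27.5%. The share of changed members was thus close to that of the background. The groups did not overlap in 22 members, beside 54.5% of all genes: every OMP value lay above every Vehicle value in 7 (19.9% of all genes) and below in 15 (34.6%). The median log2 fold change of the members was -0.04, beside -0.09 over all genes tested. A log2 fold change of at least 0.5 in size was seen in 4 members (9.52%), namely Slc2a3, Pfkm, Idh1 and Idh2, and in 21.4% of all genes. In 20 members the size was under 0.1. The members were measured more tightly than most genes, with a median coefficient of variation of 2.91% in Vehicle and 4.42% in OMP, beside 6.84% and 7.80% over all genes. Most are abundant: 23 of the 42 lay above the 90th percentile of Vehicle level, and the range ran from percentile 24.5 for Slc2a3 to 99.4 for Aldoa. The split of the changed members between directions depends on scaling. It was 4 higher and 12 lower as deposited, 10 and 9 with median-of-ratios scaling, and 3 and 20 after rescaling to TPM (the same values scaled to an equal sum in each library), and each scaling moved the median of all genes by less than 0.1.

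**Figure D1:**
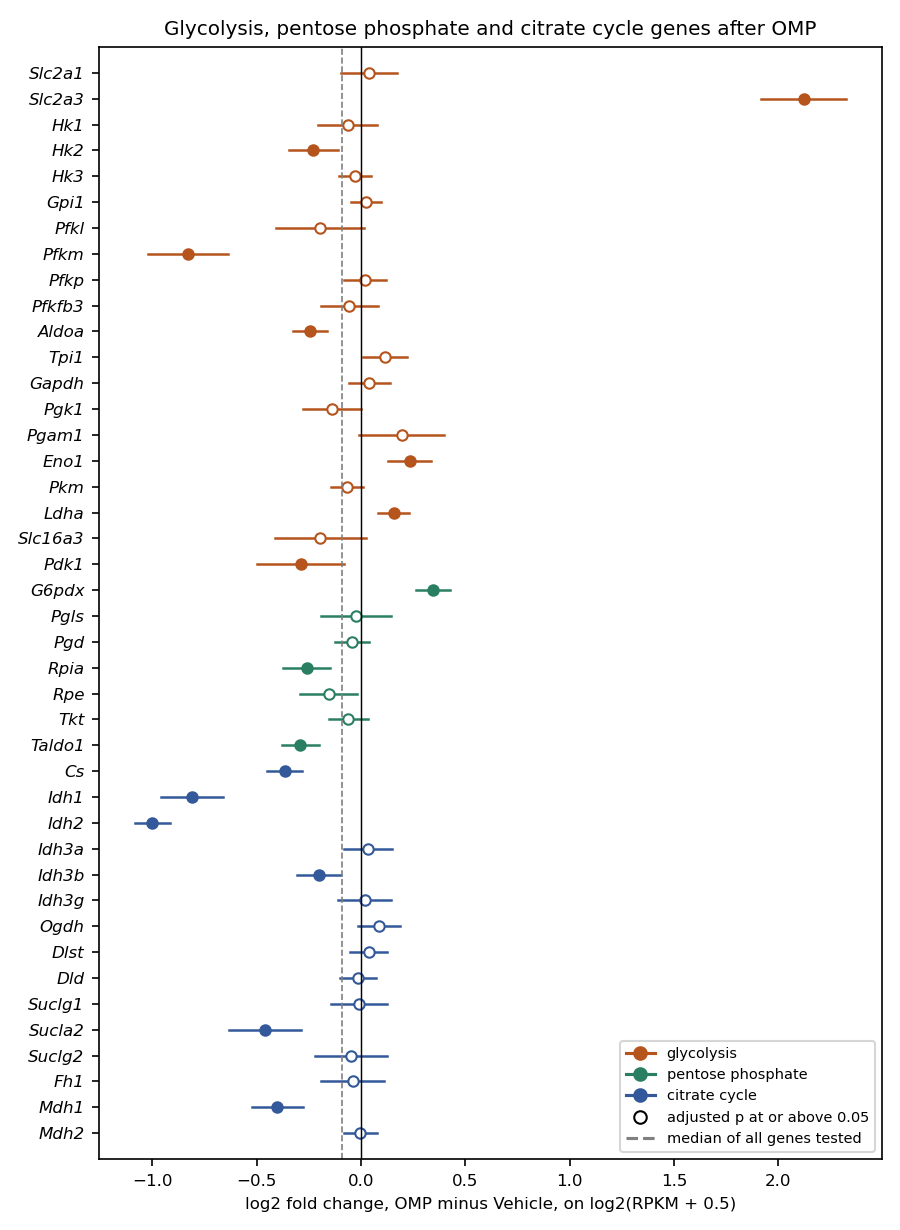
Log2 fold change (OMP minus Vehicle, on log2(RPKM + 0.5)) of each of the 42 tested members, with its 95% confidence interval as a line and coloured by pathway. Filled points passed the adjusted threshold of 0.05, and the dashed line is the median of all genes tested (-0.09). Slc2a3 lies far to the right at 2.12, Pfkm, Idh1 and Idh2 lie left of -0.5, and 20 members lie within 0.1 of 0.

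**Figure D2:**
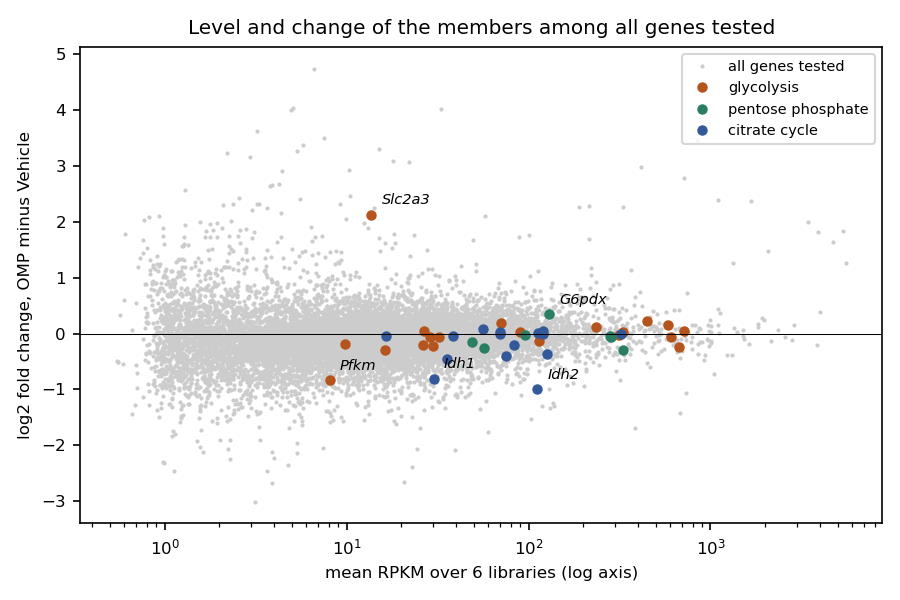
Log2 fold change against mean RPKM over the 6 libraries (log axis) for all genes tested in grey and for the members in colour by pathway. Slc2a3 is the member farthest from 0 and has a low level in Vehicle. Of the abundant members, Gapdh lies at 0.04, Pkm at -0.07, Aldoa at -0.25 and Eno1 at 0.23.

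The library totals recovered from the RPKM steps ran from 3737843 to 4247619 reads in Vehicle and from 3494986 to 3720117 in OMP, so every OMP library was shallower than every Vehicle library. In a gene of 1 kb, 3 reads stood for 0.706 to 0.858 RPKM. That floor covers counting error only, while the 95% intervals given for log2 fold changes are limma's and rest on the spread among libraries. Of 9 tested myeloid markers, Ptprc, Spi1, Itgam and Cd33 were higher with OMP, Kit, Mpo, Elane and Csf3r were lower, and Csf1r was at 1.75 ± 0.214 and 1.76 ± 0.168 RPKM (SD, n = 3 per group). The summed level of the myeloid list was 1399 to 1450 RPKM in Vehicle and 863 to 893 RPKM in OMP. Elane alone held 974 to 1019 RPKM in Vehicle and 346 to 387 RPKM in OMP, and without it the sum was higher in OMP, at 495 to 517 RPKM against 421 to 432 RPKM. Markers of B cells, T cells and erythroid cells summed to under 1 RPKM in each library, with 3 of 4, 3 of 4 and 2 of 5 at 0 throughout. The megakaryocyte list had 0.813 to 1.05 RPKM in Vehicle and 2.02 to 2.65 RPKM in OMP with Pf4 at 0, and the stromal list 2.62 to 3.24 RPKM over all libraries, nearly all from Pdgfrb. With reads thinned to equal totals, a setting chosen after seeing the data, 15 of the 16 changed members still passed, Pdk1 being the exception. The part of the myeloid and megakaryocyte markers in the changes below was not tested. In bulk RNA, fewer cells of a type and less RNA per cell cannot be told apart.

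Glucose enters these cells through facilitative carriers. Slc2a3 (GLUT3, a carrier of high affinity; ENSMUSG00000003153, GRCm38 chromosome 6, 122727809 to 122801640) had 4.93, 5.12 and 4.34 RPKM in Vehicle libraries 1 to 3 and 23.8, 21.0 and 22.9 RPKM in OMP libraries 1 to 3. Every OMP value was above 20 RPKM and every Vehicle value under 6. Its reads summed to 229 in Vehicle and 961 in OMP, and the log2 fold change was 2.12 ± 0.09 SE (limma adjusted p = 1.19e-06). Slc2a1 (GLUT1, the carrier that most cell types express) had 26.6, 26.5 and 26.1 RPKM in Vehicle and 25.5, 28.7 and 27.3 RPKM in OMP. These groups overlapped, and the log2 fold change was 0.04 with a 95% interval from -0.09 to 0.17. Slc2a3 thus made up 15.4% ± 1.02 of the summed RPKM of the pair in Vehicle and 45.4% ± 2.99 in OMP (SD, n = 3). This share does not depend on the scaling of the libraries, but it does depend on gene length. With the longest annotated transcript as length, a choice made after seeing the data, it was 10.3% ± 0.724 and 34.5% ± 2.72.

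Hexokinases trap glucose in the cell by phosphorylation. Hk3, an isozyme of white blood cells, was the most abundant at 316.7 ± 1.34 RPKM in Vehicle and at 310.8 ± 9.40 RPKM in OMP (log2 fold change -0.03, interval from -0.10 to 0.05). Hk3 passed as lower after rescaling to TPM (-0.11, limma adjusted p = 0.0207) and with quantile normalization (-0.13, 0.00815). With median-of-ratios scaling its log2 fold change was 0.06, not past the threshold (limma adjusted p = 0.156). Hk2, an isozyme that can bind mitochondria and is common in tumours, had 32.9, 32.1 and 31.5 RPKM in Vehicle and 28.4, 26.6 and 27.2 RPKM in OMP. The groups did not overlap, and the fall was small (log2 fold change -0.23 ± 0.05 SE, limma adjusted p = 0.00783). With median-of-ratios scaling Hk2 no longer passed (limma adjusted p = 0.0656). Hk1, the widespread isozyme, had 34.5, 31.9 and 32.2 RPKM in Vehicle and 33.4, 31.6 and 29.5 RPKM in OMP, which overlapped. By share of the 3 isozymes, Hk3 held 83.0% ± 0.439 in Vehicle and 84.1% ± 1.01 in OMP, and Hk2 went from 8.42% ± 0.156 to 7.41% ± 0.381 without overlap.

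**Figure D3:**
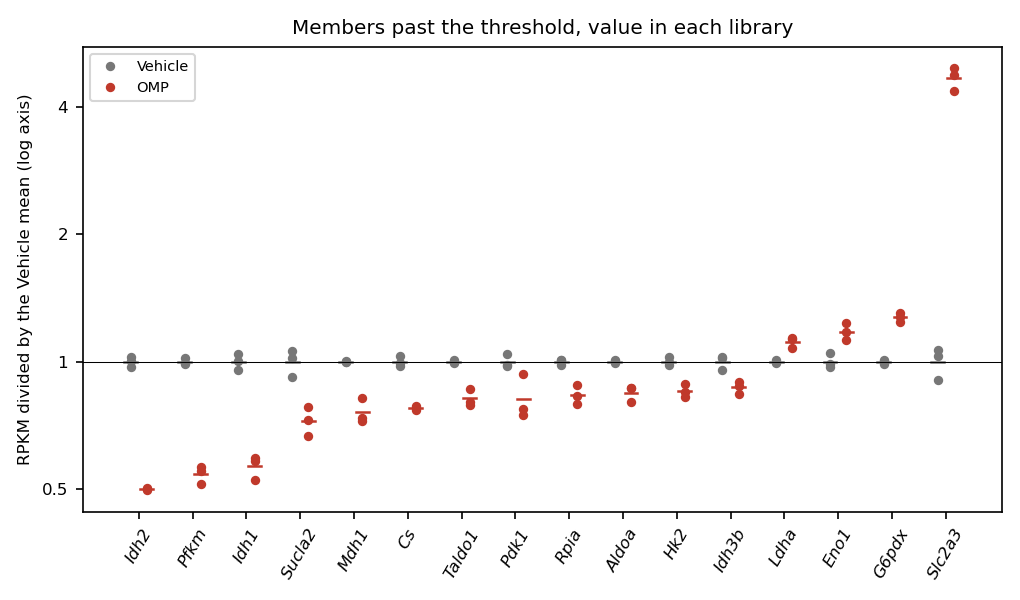
RPKM in each library divided by the gene's Vehicle mean (log axis) for the 16 members past the threshold, ordered by log2 fold change, with points for libraries and short lines for group means. The OMP points of Slc2a3 lie above 4, those of Idh2 near 0.5, and those of most other genes between 0.5 and 1.5.

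In the upper steps, from glucose phosphate to the triose phosphates, the muscle-type phosphofructokinase and aldolase A fell. Phosphofructokinase catalyses the committed step. Pfkm (chromosome 15, 98092589 to 98132451) had 10.3, 10.7 and 10.4 RPKM in Vehicle and 5.36, 5.77 and 5.88 RPKM in OMP. No library of either group came near the other group, and the gene was 1.78-fold lower (log2 fold change -0.83 ± 0.08 SE, limma adjusted p = 0.00013), from 364 reads in Vehicle and 176 in OMP. Pfkm overlaps Senp1 on the opposite strand, which went from 20.5 to 15.05 RPKM. The sources used here do not say whether the counting used strand, and reads in the shared stretch cannot be told apart.

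The other phosphofructokinases did not pass the threshold. Pfkl, the liver type, had 32.3, 26.0 and 25.8 RPKM in Vehicle and 24.2, 22.9 and 25.7 RPKM in OMP, with Vehicle 1 standing above the rest (log2 fold change -0.20 ± 0.09 SE, limma adjusted p = 0.122). Pfkp, the platelet type and the most abundant here, was at 89.2 ± 2.44 and 90.5 ± 3.43 RPKM. Pfkm's share of the 3 isozymes was 8.21% ± 0.491 in Vehicle and 4.71% ± 0.164 in OMP, and Pfkp's was 69.9% ± 1.37 and 75.1% ± 0.509. These shares depend on gene length. With the longest annotated transcript as length, Pfkm's was 12.9% ± 0.902 and 7.76% ± 0.304, and Pfkp's 52.6% ± 1.61 and 59.1% ± 0.660. Pfkfb3, which makes an activator of phosphofructokinase, was at 29.3 ± 0.551 and 28.2 ± 1.77 RPKM.

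Aldoa, which cleaves fructose bisphosphate, was the most abundant member in Vehicle. It had 732, 721 and 727 RPKM in Vehicle and 584, 628 and 629 RPKM in OMP (chromosome 7, 126795234 to 126800751). All OMP libraries lay below all Vehicle libraries, by 1.19-fold in the fit (log2 fold change -0.25 ± 0.04 SE, limma adjusted p = 0.000898). It made up 99.9% of aldolase RPKM in each group, the rest being Aldoc. Tpi1, triose phosphate isomerase, had 222, 225 and 226 RPKM in Vehicle and 233, 260.0 and 236 RPKM in OMP. Its groups did not overlap, but it missed the threshold (log2 fold change 0.11 ± 0.05 SE, limma adjusted p = 0.0721). Gpi1, glucose phosphate isomerase, was at 327 ± 3.62 and 333 ± 8.19 RPKM.

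Of the lower steps, which harvest ATP, enolase was the only member past the threshold with the values as deposited. Eno1 (chromosome 4, 150236721 to 150248879) had 432, 400.1 and 407 RPKM in Vehicle and 464, 509 and 484 RPKM in OMP. Every OMP value was the higher, and the log2 fold change was 0.23 ± 0.04 SE (limma adjusted p = 0.00344), a call lost under quantile normalization (limma adjusted p = 0.0567). Pgam1, phosphoglycerate mutase, had 69.8, 71.5 and 55.4 RPKM in Vehicle and 75.9, 74.6 and 73.6 RPKM in OMP. Here Vehicle 3 was low, and the gene missed the threshold (log2 fold change 0.19 ± 0.09 SE, limma adjusted p = 0.11). Pgam1 did pass as higher with median-of-ratios scaling (limma adjusted p = 0.0357) and in a voom fit of recovered reads (0.0136). Pgk1, phosphoglycerate kinase, was at 118.9 ± 4.79 and 108.3 ± 8.68 RPKM (log2 fold change -0.14, limma adjusted p = 0.102). Without OMP replicate 3 it passed (limma adjusted p = 0.0222), with -0.20 as its log2 fold change. With all libraries Pgk1 passed as lower after rescaling to TPM (-0.22, limma adjusted p = 0.0178) and with voom (-0.13, 0.0346).

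Gapdh, the glyceraldehyde phosphate dehydrogenase often used as a reference gene, was at 702 ± 14.9 RPKM in Vehicle libraries and 723 ± 38.8 RPKM in OMP libraries. Its log2 fold change was 0.04 with an interval from -0.06 to 0.14, it was -0.04 after rescaling to TPM, and with median-of-ratios scaling it was 0.13 and past the threshold (limma adjusted p = 0.0339). Pkm, pyruvate kinase, was at 619 ± 18.9 and 591 ± 10.4 RPKM (log2 fold change -0.07, limma adjusted p = 0.141). Pkm passed as lower after rescaling to TPM (-0.15, limma adjusted p = 0.00363), with quantile normalization (0.0478) and with voom (0.0447). With median-of-ratios scaling its log2 fold change was 0.02, not past the threshold.

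At the exit of glycolysis, Ldha rose and Pdk1 fell. Ldha, the lactate dehydrogenase subunit that favours lactate formation, had 551, 557 and 548 RPKM in Vehicle and 595, 627 and 625 RPKM in OMP (ENSMUSG00000063229, chromosome 7, 46841475 to 46855627). The OMP libraries all lay above the Vehicle libraries, by 1.11-fold (log2 fold change 0.16 ± 0.03 SE, limma adjusted p = 0.0046). After rescaling to TPM the call was lost, at 0.07 (limma adjusted p = 0.0744). Ldha was 1 of 2 members, with Pfkm, whose promoter held the palindrome CACGTG, the E-box to which MYC-family factors are known to bind. The 250 bases before its RefSeq start (GRCm38.p6, plus strand, chr7:46845554-46845803, inside the longer gene span of GENCODE M21) are printed with capitals at each E-box and at each ACGTG or GCGTG, on either strand, the core letters of hypoxia response elements.

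Ldha: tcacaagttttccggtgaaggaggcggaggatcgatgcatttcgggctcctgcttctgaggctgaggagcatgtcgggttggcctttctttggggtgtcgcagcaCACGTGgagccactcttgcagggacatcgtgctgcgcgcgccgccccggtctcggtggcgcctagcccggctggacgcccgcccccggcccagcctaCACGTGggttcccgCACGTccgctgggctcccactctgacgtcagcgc

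Ldha and Pfkm, which share this motif, moved in opposite directions. Pdk1, a kinase that inactivates pyruvate dehydrogenase and so holds pyruvate back from the citrate cycle, had 18.6, 17.5 and 17.4 RPKM in Vehicle and 13.7, 13.3 and 16.7 RPKM in OMP. OMP 3 stood close to the Vehicle values, and the log2 fold change was -0.29 ± 0.09 SE (limma adjusted p = 0.0325). Leaving out any library other than OMP 3 ended this call, with limma adjusted p from 0.0613 without Vehicle 3 to 0.0945 without OMP 2 and log2 fold changes from -0.31 to -0.23. The call was also lost without a filter (limma adjusted p = 0.0706), with median-of-ratios scaling (-0.20, limma adjusted p = 0.105) and with quantile normalization (-0.19, limma adjusted p = 0.119). Slc16a3, the lactate exporter MCT4, had 11.97, 10.04 and 9.72 RPKM in Vehicle and 9.17, 8.90 and 9.36 RPKM in OMP, which did not overlap (log2 fold change -0.19 ± 0.09 SE, limma adjusted p = 0.131). Over glycolysis as a whole, 3 of 20 tested members were higher and 4 lower (35%, beside 43% of all genes), with a median log2 fold change of -0.04. That split was 7 and 2 with median-of-ratios scaling, 2 and 9 after rescaling to TPM, and 2 and 5 with quantile normalization.

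In the pentose phosphate pathway, the entry enzyme rose, and 2 of the 4 enzymes of the non-oxidative arm, Taldo1 and Rpia, fell. G6pdx, glucose phosphate dehydrogenase (ENSMUSG00000031400, chromosome X, 74409483 to 74429194), makes the first NADPH of the pathway. It had 115, 114 and 112 RPKM in Vehicle and 141, 148 and 145 RPKM in OMP. The groups lay well apart, with a 1.27-fold rise (log2 fold change 0.35 ± 0.04 SE, limma adjusted p = 0.000154). Ikbkg, on the opposite strand and overlapping it, was at 11.1 and 11.4 RPKM. The next oxidative enzymes did not pass: the lactonase gene Pgls was at 96.3 ± 8.03 and 94.7 ± 6.99 RPKM, and Pgd, phosphogluconate dehydrogenase, was at 284 ± 10.4 and 275 ± 0.599 RPKM.

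In the non-oxidative arm, which shuttles sugars back to glycolysis, Taldo1 (transaldolase) had 364, 370 and 364 RPKM in Vehicle and 289, 315 and 294 RPKM in OMP. It was 1.22-fold lower without overlap (log2 fold change -0.29 ± 0.04 SE, limma adjusted p = 0.000543). Rpia, the isomerase that yields ribose phosphate, had 60.6, 62.3 and 62.4 RPKM in Vehicle and 51.2, 49.1 and 54.4 RPKM in OMP (log2 fold change -0.26 ± 0.05 SE, limma adjusted p = 0.00334). Again no OMP library reached the Vehicle range. Rpe, the epimerase, had 52.5, 53.2 and 48.9 RPKM in Vehicle and 48.2, 47.7 and 43.0 RPKM in OMP, close to each other though not overlapping (log2 fold change -0.15 ± 0.06 SE, limma adjusted p = 0.0671). Tkt, transketolase, was at 290.2 ± 9.03 and 278 ± 11.3 RPKM. Of the 7 members of this pathway, all tested, 1 was higher and 2 were lower (42.9%, beside 43% of all genes). The number called was 6 after rescaling to TPM and 5 with quantile normalization, the added ones being lower.

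In the citrate cycle, the NADP-linked isocitrate dehydrogenases had the largest falls. Of 15 tested members 0 rose and 6 fell, or 40%, close to the 43% of all genes (15.4% higher, 27.5% lower). The 6 that fell were Cs, Idh1, Idh2, Idh3b, Sucla2 and Mdh1. Among them Idh1 and Mdh1 are cytosolic forms, so not all 6 are mitochondrial enzymes of the cycle. Idh2, the mitochondrial isozyme (ENSMUSG00000030541, chromosome 7, 80094846 to 80115392), had 153, 150.01 and 145 RPKM in Vehicle and 73.9, 74.4 and 75.0 RPKM in OMP. The OMP libraries lay within about 1 RPKM of each other and at 1.999-fold below Vehicle (log2 fold change -0.999 ± 0.04 SE, limma adjusted p = 6.25e-07). Idh1, the cytosolic and peroxisomal isozyme (ENSMUSG00000025950, chromosome 1, 65158616 to 65186500), had 36.7, 38.5 and 40.1 RPKM in Vehicle and 20.1, 22.7 and 22.3 RPKM in OMP. It too fell without overlap, by 1.75-fold (log2 fold change -0.81 ± 0.06 SE, limma adjusted p = 3.68e-05). Since both fell, Idh1's share of their summed RPKM, 20.5% ± 1.15 in Vehicle and 22.6% ± 1.05 in OMP, overlapped between groups.

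The promoters of this pair are shown because the genes moved together, as the bases before the RefSeq start that no annotated exon covers, in GRCm38.p6 and on the minus strand. They are chr1:65186501-65186682 for Idh1 and chr7:80115393-80115600 for Idh2, with capitals at a match to ACGTG or GCGTG on either strand.

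Idh1: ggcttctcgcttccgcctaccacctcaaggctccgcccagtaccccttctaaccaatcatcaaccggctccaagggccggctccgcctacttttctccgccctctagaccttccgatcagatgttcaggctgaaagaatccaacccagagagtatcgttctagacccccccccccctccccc

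Idh2: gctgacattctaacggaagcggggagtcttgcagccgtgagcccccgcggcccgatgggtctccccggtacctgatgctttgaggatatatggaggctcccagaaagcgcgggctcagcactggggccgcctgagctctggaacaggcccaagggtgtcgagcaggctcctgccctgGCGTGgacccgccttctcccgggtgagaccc

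Neither holds CACGTG, and the core letters occur once in Idh2 and not in this window of Idh1. Over the 42 members with a promoter in the RefSeq table (Slc2a3 and Idh3a are not among them), CACGTG was in 2 (4.76%), beside 6.04% of all 27025 promoters and 8.85% of the promoters of genes tested. ACGTG or GCGTG, which also counts the E-boxes that contain it, was in 28 (66.7%), beside 38.6% and 58.8%. These are letter matches in 250 bases and say nothing of binding.

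The NAD-linked isocitrate dehydrogenase, a mitochondrial enzyme of 3 kinds of subunit, moved less. Idh3b, a regulatory subunit named as a changed member outside the rule for full values, had 84.6, 90.7 and 91.1 RPKM in Vehicle and 79.3, 77.7 and 74.4 RPKM in OMP. It fell slightly and without overlap (log2 fold change -0.20 ± 0.05 SE, limma adjusted p = 0.00839), but not past the threshold with median-of-ratios scaling (limma adjusted p = 0.0899). Its gene overlaps Nop56 on the opposite strand, which went from 140.6 to 245.0 RPKM, and reads in the shared stretch cannot be told apart. The catalytic subunit Idh3a had 71.1, 71.4 and 64.8 RPKM in Vehicle and 70.6, 72.2 and 69.1 RPKM in OMP. The other regulatory subunit, Idh3g, had 112, 111 and 113 RPKM in Vehicle and 105, 123 and 113 RPKM in OMP. Groups overlapped in both, with log2 fold changes of 0.03 and 0.02.

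Cs, citrate synthase, which brings acetyl groups into the cycle, is likewise given as a changed member chosen after its values were seen. It had 146, 139 and 141 RPKM in Vehicle and 109, 111 and 110.2 RPKM in OMP, a 1.29-fold fall with all OMP libraries below 112 RPKM and all Vehicle libraries above 138 (log2 fold change -0.37 ± 0.04 SE, limma adjusted p = 0.000125).

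The oxoglutarate dehydrogenase complex did not pass the threshold in any of its subunits. Ogdh, its decarboxylase, had 54.8, 53.1 and 55.3 RPKM in Vehicle and 57.2, 56.7 and 59.8 RPKM in OMP, slightly higher without overlap (log2 fold change 0.09 ± 0.04 SE, limma adjusted p = 0.138). Dlst, its succinyl-transferring core, had 119, 117 and 121 RPKM in Vehicle and 118, 122 and 127 RPKM in OMP. Dld, the subunit it shares with pyruvate dehydrogenase, was at 121.2 ± 2.64 and 120.1 ± 2.87 RPKM. Ogdh and Dlst passed with median-of-ratios scaling, at log2 fold changes of 0.18 and 0.13 (limma adjusted p = 0.0108 and 0.0268), so no citrate cycle member rose as deposited but 2 did under that scaling.

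Succinyl-CoA ligase joins a common alpha subunit, Suclg1, to a beta subunit that sets the nucleotide used. The ATP-forming beta subunit Sucla2 had 42.1, 43.6 and 37.9 RPKM in Vehicle and 32.1, 29.9 and 27.5 RPKM in OMP. It was 1.38-fold lower without overlap (log2 fold change -0.46 ± 0.07 SE, limma adjusted p = 0.00148). The GTP-forming Suclg2 was at 16.7 ± 1.09 and 16.1 ± 1.02 RPKM, and Suclg1 at 69.5 ± 4.18 and 69.1 ± 3.74 RPKM, both overlapping. Sucla2's share of the beta subunits was 71.2% ± 0.848 in Vehicle and 64.8% ± 3.20 in OMP.

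Of the last steps, fumarase (Fh1) was at 39.2 ± 3.21 and 38.0 ± 0.862 RPKM. The cytosolic malate dehydrogenase Mdh1, which works in the malate-aspartate shuttle, had 85.4, 85.6 and 86.1 RPKM in Vehicle and 62.8, 70.1 and 61.8 RPKM in OMP. All OMP values were clearly below the Vehicle values (log2 fold change -0.40 ± 0.05 SE, limma adjusted p = 0.000524). The mitochondrial Mdh2, the isozyme of the cycle itself, was at 324 ± 11 and 323 ± 2.71 RPKM, with a log2 fold change of -0.00 and an interval from -0.08 to 0.08. Mdh1 thus made up 20.9% ± 0.627 of malate dehydrogenase RPKM in Vehicle and 16.7% ± 1.03 in OMP.

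**Figure D4:**
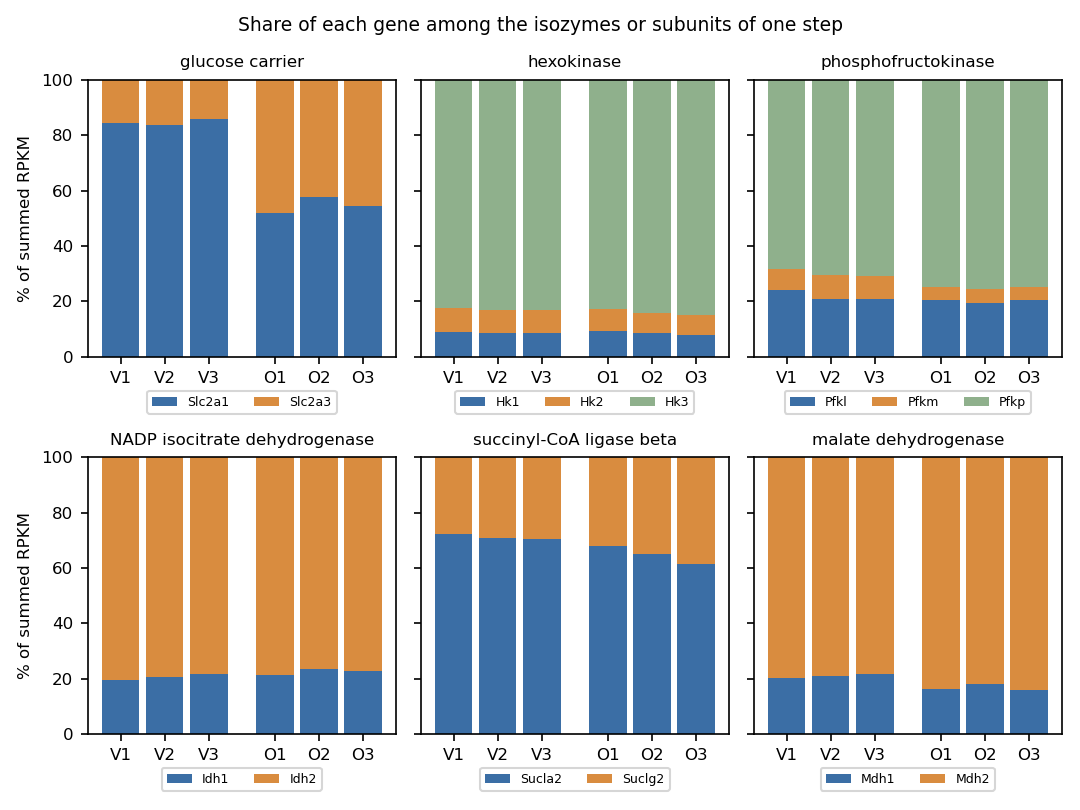
Share of each gene in the summed RPKM of its enzyme step (y axis, percent) in Vehicle libraries 1 to 3 (V) and OMP libraries 1 to 3 (O), as stacked bars for 6 steps. Slc2a3 takes 14.2% to 16.2% of the glucose carrier pair in Vehicle and 42.3% to 48.2% in OMP, and Pfkm, Sucla2 and Mdh1 take smaller shares in every OMP library than in every Vehicle library.

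Grouped by their product after their values were seen, the members that reduce NADP moved apart: G6pdx rose, Pgd did not pass the threshold, and Idh1 and Idh2 fell. Of the isozyme pairs with a cytosolic and a mitochondrial form, Idh1 and Idh2 both fell, while in the malate dehydrogenases only the cytosolic Mdh1 passed the threshold.

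Summed over all members of a pathway and expressed as TPM, glycolysis held 10151 ± 149 in Vehicle and 9639 ± 240 in OMP, the pentose phosphate pathway 2949 ± 40.3 and 2619 ± 47.7, and the citrate cycle 3434 ± 41.3 and 2883 ± 23.6 (SD, n = 3). All sums were lower in every OMP library, with log2 ratios of -0.07, -0.17 and -0.25. A sum follows its abundant genes, such as Idh2 in the citrate cycle, which went from 149 to 74.4 RPKM. The citrate cycle sum also includes the cytosolic forms Idh1 and Mdh1. By gene, the median log2 fold change of the tested members after rescaling to TPM was -0.13, -0.15 and -0.12. Over all genes tested it was -0.17 on that scale. A TPM is a share of the library, so it falls where other genes take more of it. Without the 10 most abundant genes in the denominator the ratios were 0.0038, -0.09 and -0.17. The summed RPKM of glycolysis, 4287 to 4426 in Vehicle and 4226 to 4501 in OMP, overlapped between groups, so a lower glycolysis sum is not shown on that scale.

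The other genes of these pathways were listed by name, 90 genes in all, of which 68 were tested. Of these, 6 were higher and 28 lower, or 50%, with a median log2 fold change of -0.16, beside 43% and -0.09 for all genes. The split was 9 and 21 with quantile normalization and 3 and 37 after rescaling to TPM. Among 15 other glycolysis genes and regulators, 2 were higher and 5 lower (46.7%, beside 43% of all genes). Slc2a6, a lysosomal hexose carrier of myeloid cells, rose from 10.1 ± 0.303 to 18.3 ± 2.63 RPKM (log2 fold change 0.82), and the ADP-dependent glucokinase gene Adpgk rose from 96.2 ± 1.65 to 137 ± 4.85 RPKM (0.51). Slc2a8, an intracellular hexose carrier, fell from 6.12 ± 1.15 to 3.45 ± 0.446 RPKM (-0.74), and Pfkfb1, an isozyme of Pfkfb3, from 4.10 ± 0.218 to 2.14 ± 0.509 RPKM (-0.82). Ldhb, the lactate dehydrogenase subunit of the heart, had 0 reads in every library, which allows up to 3 in each by counting error.

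Of 11 pyruvate dehydrogenase and pyruvate carrier genes, 1 was higher and 2 lower (27.3%, beside 43% of all genes). Pdk3, a further kinase of pyruvate dehydrogenase, fell from 26.7 ± 2.20 to 17.95 ± 1.08 RPKM (log2 fold change -0.56). Pcx, pyruvate carboxylase, which refills the cycle, went from 2.01 ± 0.401 to 1.01 ± 0.0920 RPKM (-0.72, limma adjusted p = 0.0312). Pcx lost its call without each library in turn except Vehicle 3, with limma adjusted p from 0.0514 without OMP 2 to 0.114 without Vehicle 1. The Pcx call was also lost with the replicate number as a block (limma adjusted p = 0.0521), without a filter (0.0650) and with quantile normalization (0.0630).

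In the remaining pentose phosphate genes, 0 of 4 were higher and 3 lower (75%, beside 43% of all genes). H6pd, which carries out the oxidative steps inside the endoplasmic reticulum, fell from 29.8 ± 1.47 to 18.3 ± 2.44 RPKM (log2 fold change -0.70), in the opposite direction to G6pdx. Rbks, ribokinase, fell from 12.6 ± 3.57 to 8.10 ± 0.747 RPKM (-0.58). The Rbks call was lost without OMP 1 (limma adjusted p = 0.0542) or OMP 2 (0.0718). It was also lost without a filter (limma adjusted p = 0.0733) and with quantile normalization (0.0541).

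Other citrate cycle genes and feeders gave 2 higher and 9 lower of 17 (64.7%, beside 43% of all genes). Pck2, mitochondrial phosphoenolpyruvate carboxykinase, fell from 71.8 ± 2.28 to 39.4 ± 2.005 RPKM (log2 fold change -0.86), Ogdhl, a relative of Ogdh, from 7.07 ± 0.263 to 4.42 ± 0.189 RPKM (-0.62), and the dicarboxylate carrier gene Slc25a10 from 12.9 ± 0.498 to 8.73 ± 0.432 RPKM (-0.54). Succinate dehydrogenase, a cycle enzyme absent from the 44 genes, is named here after its values were seen. Its subunit gene Sdha fell from 111.1 ± 0.578 to 84.2 ± 2.10 RPKM (-0.40), while Sdhb, Sdhc and Sdhd did not pass the threshold.

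Several members are textbook targets of the hypoxia-inducible factors (HIF), some of them higher with OMP, some lower and some not past the threshold. Of 17 tested HIF pathway genes and other targets, 1 was higher and 7 lower (47.1%, beside 43% of all genes), with a median log2 fold change of -0.17. Hif1a itself was at 48.5 ± 1.74 and 45.7 ± 1.55 RPKM. Egln3 and Egln1, prolyl hydroxylases that mark HIF for breakdown, fell from 31.7 ± 0.781 to 14.7 ± 1.54 RPKM (-1.09) and from 19.7 ± 1.33 to 12.7 ± 1.73 RPKM (-0.62). Bnip3, a mitophagy receptor, fell from 5.11 ± 0.744 to 2.22 ± 0.235 RPKM (-1.04), and P4ha1, a collagen prolyl hydroxylase subunit, from 24.4 ± 1.28 to 16.9 ± 0.600 RPKM (-0.52).

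The glucose-sensing factors of the Mondo family switch on Txnip and Arrdc4, arrestin-like proteins that restrain glucose uptake. Txnip fell from 119.8 ± 3.40 to 77.2 ± 1.28 RPKM (log2 fold change -0.63 ± 0.04 SE, limma adjusted p = 1.01e-05). Arrdc4 fell from 6.87 ± 0.407 to 3.89 ± 0.390 RPKM (-0.75 ± 0.11 SE, limma adjusted p = 0.00109). The factor genes Mlxip and Mlx, at 11.7 ± 0.948 and 12.3 ± 0.862 RPKM and at 56.9 ± 3.70 and 55.6 ± 1.79 RPKM, did not pass the threshold. So 0 of these 4 tested genes were higher and 2 were lower (50%, beside 43% of all genes).

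**Figure D5:**
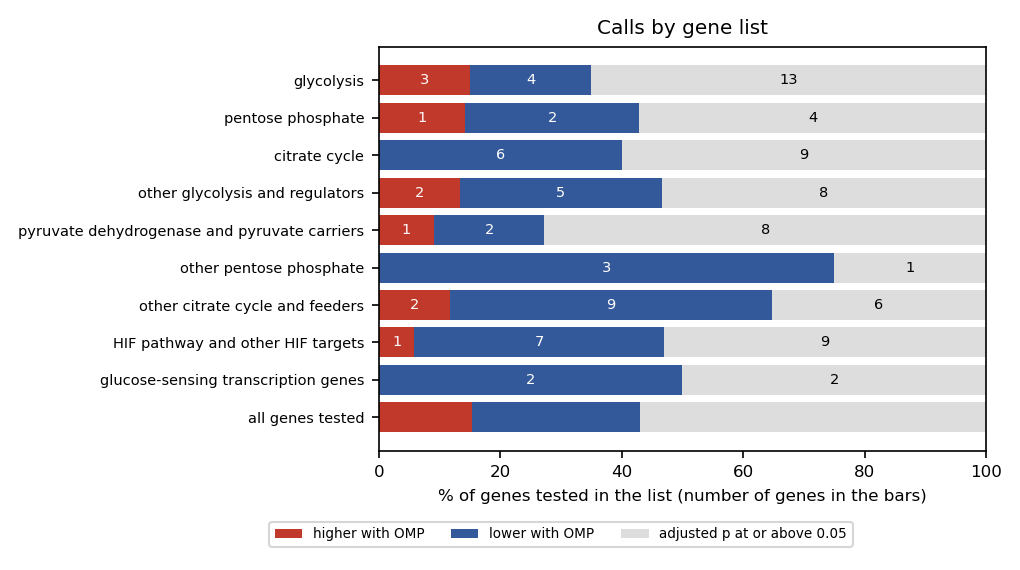
Share of tested genes in each list (x axis, percent) that were higher (red), lower (blue) or not past the threshold (grey) with OMP, with gene numbers in the bars and all 11020 genes tested as the bottom bar. Citrate cycle members have 0 higher and 6 lower of 15, and the other citrate cycle and feeder genes 2 higher and 9 lower of 17.

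Levels between genes depend on the length used for the RPKM, which was the longest annotated transcript for 25 of the 42 tested members and another length for 17. The 20 annotated genes and pseudogenes whose symbols name them as copies of members held 50 reads over all libraries and at most 1.73 RPKM each. Copies under other names were not counted. If reads that match several places were left out of the counts, copies would hold few reads in any case. These values thus cannot show whether copies affected the members' counts.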

How the data were processed

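Poly(A)-selected RNA was sequenced from TruSeq libraries, per the labels' protocols. The authors deposited RPKM, 1 column per library. STAR 2.5.3a, featureCounts 1.6.3, Trimmomatic 0.36, FastQC 0.11.5 and the build mm10 (GRCm38) are listed in the submitters' processing notes. The sources used here give neither annotation release nor strand setting. Whole reads were recovered from the RPKM steps for 100% of values within a tolerance of 1e-06 (19970 genes above 0), and 94.6% of the lengths equal an annotated one. Positions are from GENCODE M21.

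All genes with at least 1 RPKM in at least 3 libraries were fitted with limma 3.58.1 (R 4.3.3) on log2(RPKM + 0.5) with a trended prior and no covariate, two-sided, with Benjamini-Hochberg adjustment over 11020 genes. The procedure was tested on simulated data. Isozyme shares and pathway sums were described without a test. Libraries of a group differed by more than sampling noise (chi-square per degree of freedom 1.19 to 1.61), so none was a mere resampling of another. This does not show that they came from separate cultures.

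The members and lists were chosen with earlier results of these data known. All members are given by value or range. The largest log2 fold changes in each direction (5 for glycolysis, 3 for pentose phosphate, 4 for the citrate cycle) and the first-named isozyme of each share are given in every library. Other pathway genes are named if past the threshold with a log2 fold change of at least 0.5 in size, and some are not reported here. Alternatives were pseudocounts of 1 and 0.1, no filter or 5 RPKM, TPM, median-of-ratios and quantile scaling, a robust prior, voom on recovered reads, the replicate block, a 0.01 threshold and leaving out each library. Thinned reads and longest-transcript lengths were added after seeing the data. Figures used matplotlib 3.10.9 in Python 3.11.15.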

Additional observations from a re-analysis of the deposited data

How the results depend on the processing

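Of the 16 changed members, 11 passed the threshold in each alternative fit at 0.05, namely Slc2a3, Pfkm, Aldoa, G6pdx, Rpia, Taldo1, Cs, Idh1, Idh2, Sucla2 and Mdh1, and 5 (Hk2, Eno1, Ldha, Idh3b and Pdk1) lost the call in at least 1, with the values given above. Of the 26 members that did not pass, 14 did in some alternative. No changed member reversed sign in these fits. The cause of these differences was not tested.

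The members called numbered 22 with voom (6 higher, 16 lower) and 19 with quantile normalization (4 and 15). In glycolysis 11 were called after rescaling to TPM and 12 with voom, and in the pentose phosphate pathway 6 and, with quantile normalization, 5. The threshold of 0.01 left 3070 genes of the whole table. Over all genes, 2370 were higher and 2237 lower with median-of-ratios scaling, 2244 and 2321 with quantile normalization, and 1215 and 3973 after rescaling to TPM. Without the 10 most abundant genes in the denominator, the log2 ratios of summed TPM were 0.0038, -0.093 and -0.17 for glycolysis, the pentose phosphate pathway and the citrate cycle.

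When each library was left out in turn, calls numbered 3952 to 4207 over all genes, 15 to 17 members, 6 to 8 in glycolysis, 3 to 3 in the pentose phosphate pathway, 6 to 6 in the citrate cycle and 26 to 32 other pathway genes. The log2 ratios of summed TPM then ran from -0.086 to -0.054, -0.18 to -0.16 and -0.26 to -0.25.

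With the replicate block 17 members (4 higher, 13 lower), 4445 genes and 32 other pathway genes were called, Rpe being the gain (limma adjusted p = 0.0404) for 4 in the pentose phosphate pathway. Same-numbered libraries did not visibly deviate together (r = -0.0024, 0.015 and 0.0069 across genes, which are not independent replicates). These values cannot settle whether the numbers pair libraries, since counting noise lowers such correlations. Shallow libraries limit low members such as Aldoc and Eno2, and 3 libraries per group limit the precision of small changes.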
